A study of Mus musculus with 14 samples.

Results

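The lysyl oxidase family of the mouse consists of Lox and its paralogues Loxl1, Loxl2, Loxl3 and Loxl4. The 5 members were taken by gene name from the annotation of the arrays and matched by probe to the value table that the authors deposited, which holds 36413 gene names. All 5 were among the 25896 gene names that were well above background on both arrays of at least 1 group and were therefore tested.

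Lysyl oxidases are secreted, copper-dependent amine oxidases. They convert lysine side chains of collagen and elastin to aldehydes, which then condense into the covalent crosslinks that give connective tissue its stiffness. Lox and Loxl1 are made as proenzymes and cleaved outside the cell, whereas Loxl2, Loxl3 and Loxl4 carry scavenger receptor cysteine-rich domains ahead of the catalytic domain. Fibroblasts are a main source of these enzymes, and in breast tumors lysyl oxidases are known for stiffening the matrix around the cancer cells.

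The series asked how Hsf1, the heat shock transcription factor, in fibroblasts bears on gene expression in both partners of a co-culture. D2A1 mouse breast cancer cells were profiled after culture with Hsf1 -/- mouse embryonic fibroblasts (MEFs), after culture with Hsf1 +/+ (WT) MEFs, and after growth alone. Hsf1 -/- MEFs were profiled after culture with D2A1 cells and after growth alone, and so were WT MEFs. Each of the 7 groups had 2 arrays, Rep A and Rep B, at 72 h in DMEM with 10% serum, and co-cultured cells were separated by fluorescence-activated sorting. MEFs that shared a dish with the tumor cells to be profiled had been exposed to mitomycin C at 10 µg/ml for 2 h, so tumor cells alone lacked both the MEFs and that exposure. The labels name no separate MEF isolates or cultures, so genotype and MEF isolate cannot be told apart. Rep A and Rep B may be technical repeats, in which case a p-value covers no more than technical spread. Levels are log2 values of 1-colour Agilent arrays, and a difference of 1 is a doubling.

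The family was read by 11 probes. Lox, Loxl1 and Loxl4 each had 2, Loxl3 had 1, and Loxl2 had 4. Of the Loxl2 probes, 3 lie on the plus strand of chromosome 14, where Loxl2 itself is, and 1 lies on chromosome 2 against a predicted transcript that the array's annotation describes as similar to Loxl2. The value table names its Loxl2 line after the chromosome 2 probe. The following sequences (build mm9 of the array annotation, plus strand) are shown because the Loxl2 line is named after the first of them. They are the chromosome 2 probe at chr2:71475085-71475144 and the upstream and middle chromosome 14 probes at chr14:70090017-70090076 and chr14:70092141-70092200. The closing TAG of the chromosome 2 probe, in capitals, is a stop triplet in the first frame of the probe. Its reading frame was not given.
A_55_P1987862: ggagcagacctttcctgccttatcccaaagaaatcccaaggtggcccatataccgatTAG
A_55_P2131348: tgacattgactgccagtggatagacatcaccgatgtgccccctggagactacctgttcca
A_51_P275949: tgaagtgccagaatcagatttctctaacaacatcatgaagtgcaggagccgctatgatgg

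On the 12 arrays with a sound scan, the authors' Loxl2 value did not follow the chromosome 2 probe that names it (Pearson r = -0.12). It followed each of the 3 chromosome 14 probes (r of 0.981 to 0.986) and the mean of all 4 probes (r = 0.99), so these values do not show which probes the authors combined. The middle chromosome 14 probe carried an outlier flag on 3 of the 12 arrays. The chromosome 2 probe differed by 0.01 between tumor cells alone and WT MEFs alone, where the chromosome 14 probes differed by -1.69, -3.68 and -3.94 from upstream to downstream. The other 4 members' values followed the mean of their own probes with r of 0.98 or more.

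**Figure D1:**
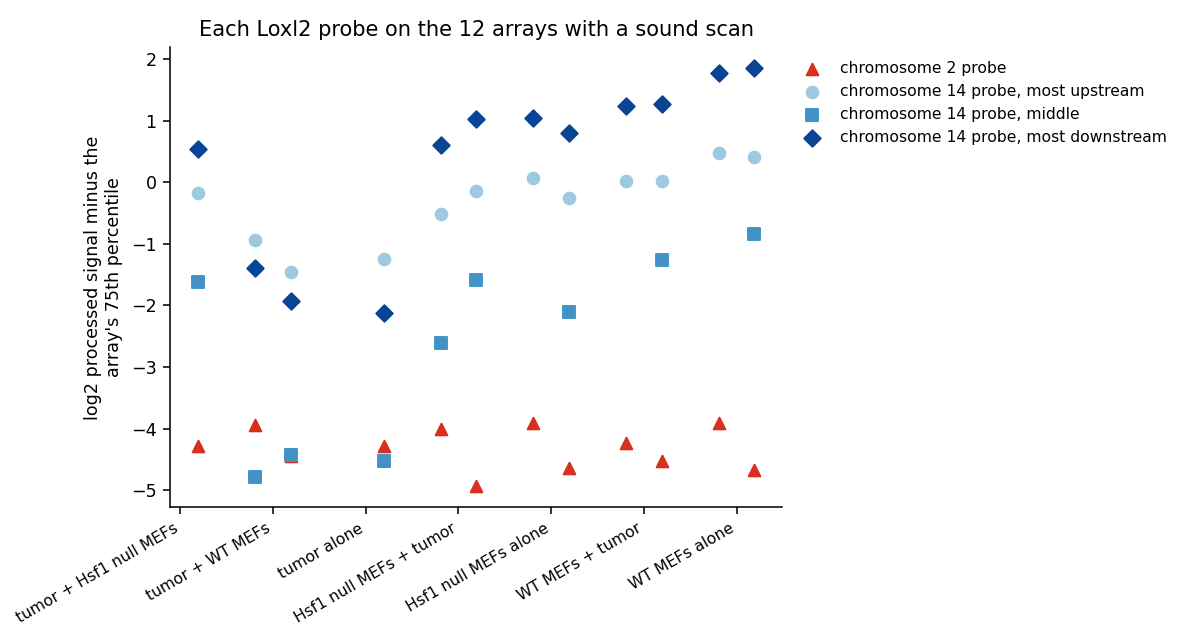
Signal of each Loxl2 probe on the 12 arrays with a sound scan (log2 processed signal minus the 75th percentile of the array), by group. Each point is 1 array, and only the course of 1 probe across groups can be read: the 3 chromosome 14 probes are higher in MEFs than in tumor cells alone, while the chromosome 2 probe stays between -4.94 and -3.90.

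Before the results, 4 facts on the arrays apply. The scanner files of Rep A of tumor cells with Hsf1 null MEFs and of tumor cells alone were faulty (36.8% and 32.1% of spots flagged as outliers, and rank correlations with the sound arrays of at most 0.478 and 0.327), so the authors' value table is the main source. Hsf1 was lower in Hsf1 null MEFs, with levels of 10.07 and 9.97 when grown alone, against 12.01 and 11.69 in WT MEFs alone (log2 difference -1.83 ± 0.12 (SE), adjusted p = 1.12e-06), and the labels do not say which part of the gene is missing. The summed linear level of 15 fibroblast markers was 91634 to 231630 in tumor cells with Hsf1 null MEFs and 111760 to 116290 in tumor cells with WT MEFs. It was 24004 to 26418 in tumor cells alone, where 10 markers were well above background and Thy1, Dcn, Lum, Fap and Mmp2 were not. Fbln2 read 14.06 there, 8.37-fold higher than in null MEFs alone. Tumor cells alone had 3 markers called higher and 11 lower than null MEFs alone, where 27.3% and 25.4% of all gene names were. Against WT MEFs alone, 0 were higher and 15 lower, where 27.8% and 23.6% of all gene names were. Of 15 epithelial markers, 9 were well above background in tumor cells alone, whereas Epcam, a defining one, was not so in any group.

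Hsf1 null MEFs grown alone had lower levels of the whole family than WT MEFs grown alone. Lox fell most, to a level 7.50-fold lower, followed by Loxl3 at 5.42-fold, Loxl1 at 3.28-fold, Loxl4 at 2.33-fold and Loxl2 at 1.51-fold lower. All 5 members passed as lower (limma with Benjamini-Hochberg adjustment over all gene names tested), where 15.9% of all gene names were called lower, 17.9% higher and 33.8% in either direction. The median of the 5 differences was -1.72, beside 0.03 over all gene names tested.

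Lox, the founding collagen and elastin crosslinker, read 10.57 and 10.81 in Hsf1 null MEFs alone, against 13.51 and 13.68 in WT MEFs alone (difference -2.91 ± 0.37, adjusted p = 1.29e-04). Loxl3, an oxidase needed for palate and spine formation in mice, read 9.42 and 9.68 in Hsf1 null MEFs, against 12.04 and 11.94 in WT MEFs (-2.44 ± 0.18, adjusted p = 2.46e-06). Loxl1, which is required for elastin renewal in adult mice, read 13.27 and 13.18 in Hsf1 null MEFs, against 14.94 and 14.94 in WT MEFs (-1.72 ± 0.28, adjusted p = 7.46e-04). Both null arrays lay below both WT arrays for these 3 genes, and also for Loxl4 and Loxl2. The share of all gene names with such a split was not counted. Loxl4 read 10.25 and 10.16 in Hsf1 null MEFs, against 11.46 and 11.39 in WT MEFs (-1.22 ± 0.12, adjusted p = 1.92e-05). Loxl2, which crosslinks collagen IV and other collagens, read 8.92 and 8.69 in Hsf1 null MEFs, against 9.43 and 9.37 in WT MEFs (-0.59 ± 0.19, adjusted p = 0.0320). Loxl2 was the weakest of the 5 calls: it was lost when either WT array or either null array was left out (adjusted p of 0.0526 to 0.185), and its chromosome 14 probes gave -0.54, -1.27 and -0.89 from upstream to downstream, of which the last passed by itself (adjusted p = 0.0269). In the 12 sound scans Loxl2 differed by -0.56 (adjusted p = 0.0527), which left 4 of 5 members called lower.

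**Figure D2:**
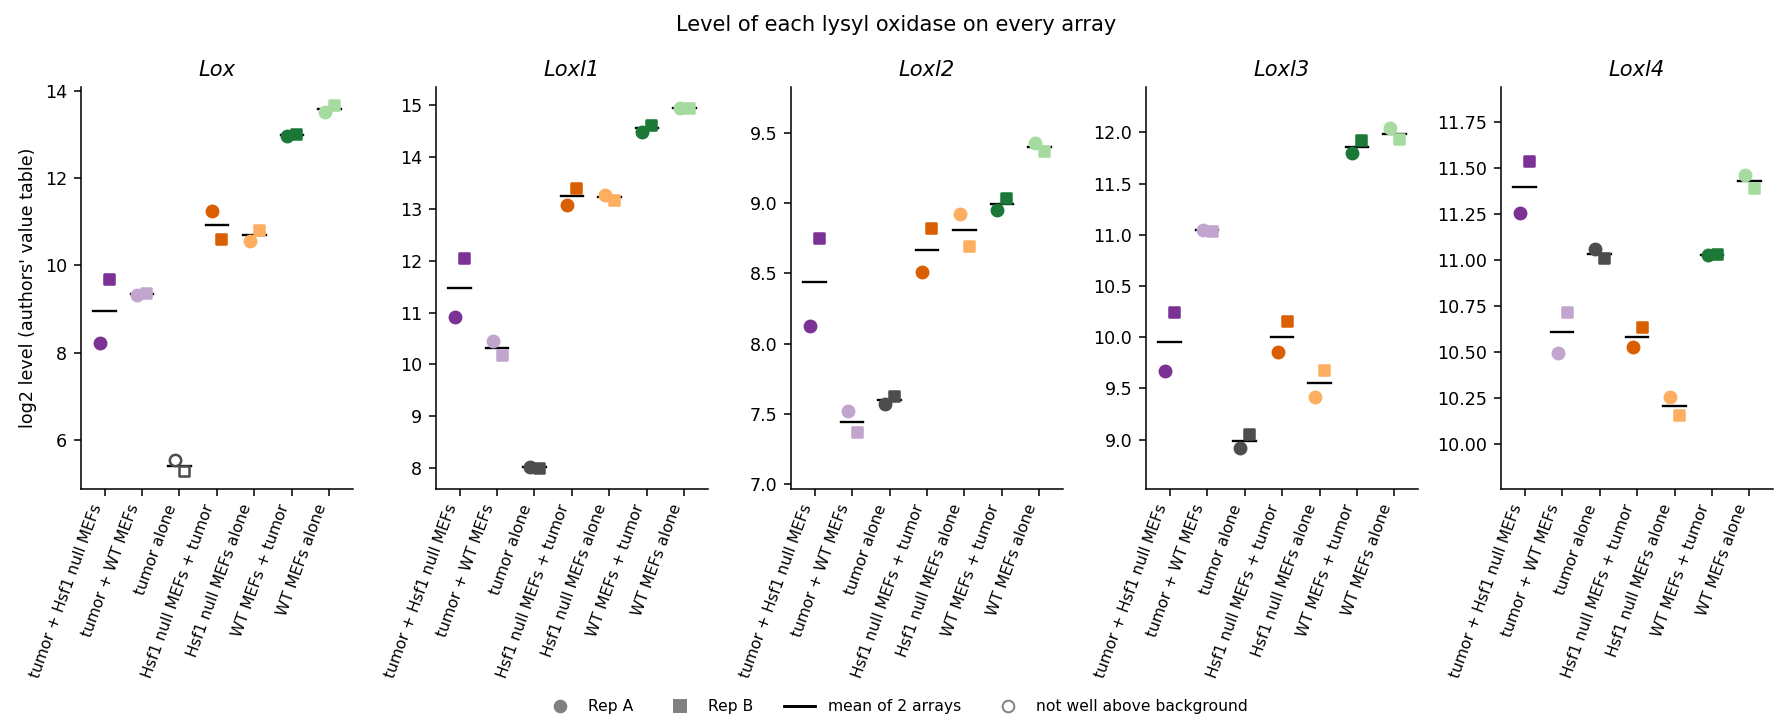
Level of each member on every array (log2, authors' value table), 1 panel a gene, with Rep A as circles, Rep B as squares and bars for the mean of 2 arrays. Open symbols mark Lox in tumor cells alone, not well above background. In all 5 panels both arrays of Hsf1 null MEFs alone lie below both arrays of WT MEFs alone, a split that was not counted over all gene names. Vertical scales differ between panels.

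The order held in co-culture for 4 members. Hsf1 null MEFs sorted away from tumor cells were lower than WT MEFs sorted away from tumor cells in Lox by 4.20-fold, in Loxl3 by 3.61-fold, in Loxl1 by 2.47-fold and in Loxl4 by 1.36-fold (4 of 5 called lower, where 14.8% of all gene names were called lower, 14.7% higher and 29.5% in either direction). The differences were -2.07 ± 0.37 for Lox (adjusted p = 0.00172), -1.85 ± 0.18 for Loxl3 (adjusted p = 2.95e-05), -1.30 ± 0.28 for Loxl1 (adjusted p = 0.00517) and -0.45 ± 0.12 for Loxl4 (adjusted p = 0.0173). Loxl2 differed by -0.33, with an interval of -0.74 to 0.09 (95%) and an adjusted p of 0.241. The Loxl4 call was lost without either co-cultured WT array or without Rep A of the co-cultured null MEFs (adjusted p of 0.0791 to 0.0862). It was also lost in the 12 sound scans (adjusted p = 0.0638), where 3 of 5 members were called lower.

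The substrates, partners and upstream factors of the enzymes were also lower in many cases in Hsf1 null MEFs alone. Of 11 collagen and elastin substrates, 6 were lower and 2 higher, where 15.9% of all gene names were called lower and 17.9% higher. These shares also stand beside the next 2 counts. The lower substrates included Eln, the elastin gene (-6.81 ± 0.68, adjusted p = 2.06e-05), and Col5a3, a minor fibrillar collagen chain (-4.07 ± 0.19, adjusted p = 1.20e-07). Col1a1 did not pass (-0.40 ± 0.34, adjusted p = 0.448). Of 13 tested proteins that cleave, bind or place lysyl oxidases, 10 were lower and 1 higher, including fibrillin-1 (Fbn1, -3.71 ± 0.32) and fibulin-5 (Fbln5, -3.76 ± 0.37), both of which form the scaffold on which elastin is laid down. Of 12 collagen hydroxylases, helpers and other crosslinkers, 7 were lower, including the prolyl hydroxylase subunit P4ha2 (-1.68 ± 0.12) and the collagen chaperone Serpinh1 (-1.004 ± 0.13). The only member of that list to rise was Tgm2, a transglutaminase that crosslinks matrix proteins through another chemistry (2.47 ± 0.16, adjusted p = 8.76e-07). The medians of the 3 lists were -0.87, -1.18 and -0.86, beside 0.03 over all gene names tested.

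Of 10 genes for copper uptake, chaperoning and export, 2 rose and 0 fell, where 17.9% of all gene names were called higher and 15.9% lower, so this count is near that of all gene names. The 2 were Atp7a, the pump that loads copper onto secreted enzymes (0.52 ± 0.14, adjusted p = 0.0121, lost without Rep B of WT or of null MEFs alone at 0.0768 and 0.0788), and the metalloreductase Steap4, which was at least 9.42-fold higher and not well above background in WT MEFs. Among 12 ligands, receptors and targets of TGF-beta, a known inducer of Lox, 9 were lower and 1 higher, with Tgfb1 itself at -1.76 ± 0.18 and the target Tgfbi at 5.01 ± 0.31. Among 15 hypoxia genes, which respond to the factors that also induce Lox under low oxygen, 5 were lower and 7 higher, with Car9 at -3.67 ± 0.16, Adm at -4.68 ± 0.39 and Bnip3 at 1.08 ± 0.09. Of 9 genes of epithelial to mesenchymal transition, in which Loxl2 and Loxl3 are reported partners of Snai1, 6 were lower and 2 higher, with Snai1 at -2.15 ± 0.15 and Snai2 at -2.02 ± 0.19.

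Beside these differences, the summed level of the 15 fibroblast markers was 472910 to 499900 in Hsf1 null MEFs alone, against 1065700 to 1086700 in WT MEFs alone, and that of the 15 epithelial markers was 12333 to 14381 in null MEFs, against 1521 to 1700 in WT MEFs. Of 14 tested epithelial markers, 6 were called higher and 1 lower in null MEFs, where 17.9% of all gene names were called higher and 15.9% lower. The higher ones included Lsr (13.08 against 7.13) and Krt19 (11.84 against 8.71), neither well above background in tumor cells alone. Krt18 read 7.65 in null MEFs and 8.01 in WT MEFs, against 16.50 in tumor cells alone. The part of these marker levels in the lysyl oxidase differences was not tested. In such bulk samples, fewer expressing cells and less RNA per cell cannot be told apart.

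In the fit over all 14 arrays, no member passed the threshold after co-culture in either kind of MEF. In Hsf1 null MEFs, 0 of 5 were called by limma after co-culture, where 3.14% of all gene names were called (2.81% higher and 0.332% lower). The differences there were 0.38 for Loxl4 (adjusted p = 0.188), 0.46 for Loxl3 (adjusted p = 0.352), 0.23 for Lox, 0.02 for Loxl1 and -0.14 for Loxl2. In WT MEFs, 0 of 5 were called by limma, where 10.5% of all gene names were (6.31% higher and 4.2% lower), and all 5 differences were negative: -0.60 for Lox, -0.40 for Loxl2, -0.40 for Loxl4 (adjusted p = 0.0651), -0.39 for Loxl1 and -0.13 for Loxl3. At an unadjusted p under 0.05, 2 members (Loxl3 and Loxl4) would pass in Hsf1 null MEFs and 1 (Loxl4) in WT MEFs. With the replicate block (Rep A and Rep B as slides), Loxl4 in co-cultured WT MEFs passed at the same difference of -0.40 (adjusted p = 0.0488). It also passed when MEFs were fitted alone (adjusted p = 0.0332). With normexp 2 members passed as lower there, where 2626 of 25562 gene names were called, 1248 of them lower. The 95% intervals leave room for larger changes, such as -1.43 to 0.22 for Lox in WT MEFs.

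Loxl4 was the one member whose response to co-culture differed by MEF genotype. It read 10.53 and 10.64 in co-cultured Hsf1 null MEFs, against 10.25 and 10.16 in null MEFs alone. It read 11.02 and 11.03 in co-cultured WT MEFs, against 11.46 and 11.39 in WT MEFs alone. The 2 genotypes thus lay closer together after co-culture. Within each genotype the arrays did not overlap, a split whose share over all gene names was not counted. The difference between the responses, null minus WT, was 0.78 ± 0.17 (adjusted p = 0.0378), 1 of 5 members called higher where 1.07% of all gene names were called higher, 1.96% lower and 3.03% in either direction. The size held in every fit that left out 1 array (0.72 to 0.83), but the call was kept in 4 of those 14, the ones without an array of co-cultured tumor cells, and lost in the other 10 with adjusted p of up to 0.150. In the 12 sound scans it was 0.80 (adjusted p = 0.128).

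Of 12 hydroxylases, helpers and other crosslinkers, 1 rose and 0 fell in co-cultured Hsf1 null MEFs, where 2.81% of all gene names were called higher and 0.332% lower. In co-cultured WT MEFs 2 rose and 3 fell, where 6.31% of all gene names were called higher and 4.2% lower. Those that fell included Serpinh1 (-0.57 ± 0.13, adjusted p = 0.0203) and P4ha3 (-0.71 ± 0.19, adjusted p = 0.0433). Tgm2 rose in both genotypes, by 0.91 ± 0.16 in co-cultured Hsf1 null MEFs and by 3.35 ± 0.16 in co-cultured WT MEFs (adjusted p = 0.00851 and 1.99e-07), and the responses differed by -2.44 ± 0.22 (adjusted p = 1.98e-04). The call in null MEFs was lost without Rep A or Rep B of null MEFs alone (adjusted p = 0.0695 and 0.0654). The telopeptide lysyl hydroxylase Plod2, whose product directs which crosslinks form, rose by 0.998 ± 0.17 in co-cultured WT MEFs (adjusted p = 0.00335). Of 13 tested proteins that cleave, bind or place lysyl oxidases, 1 rose and 2 fell in co-cultured null MEFs, and 0 rose and 1 fell in co-cultured WT MEFs. Among them Fmod, a small proteoglycan that binds collagen and Lox, fell in both, by 0.82 ± 0.16 in co-cultured null MEFs (adjusted p = 0.0138) and by 0.98 ± 0.16 in co-cultured WT MEFs (adjusted p = 0.00215). In null MEFs the Fmod call was lost without Rep A of the co-cultured cells or without either array of null MEFs alone (adjusted p of 0.0869 to 0.106). Of 11 substrates, 0 rose and 3 fell in co-cultured WT MEFs, and none passed in co-cultured null MEFs. Of 12 TGF-beta genes, 2 rose and 2 fell in co-cultured WT MEFs, and 1 rose and 0 fell in co-cultured null MEFs. Col5a3, a substrate, and Ctgf, a TGF-beta target, changed in co-cultured WT MEFs by -1.29 and -1.59. Their responses in null MEFs exceeded those in WT MEFs by 1.73 ± 0.27 and 2.13 ± 0.36 (adjusted p = 0.00534 and 0.00903).

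Signal typical of tumor cells moved with co-culture in the sorted MEFs. Genes at least 32-fold higher in tumor cells than in MEFs gained a median of 8.76% and 9.06% of their tumor cell level in co-cultured Hsf1 null MEFs (91 genes, Rep A and B), against 37.2% and 37.3% in co-cultured WT MEFs (76 genes). The epithelial marker sum was 34546 to 50355 in co-cultured null MEFs and 74431 to 85737 in co-cultured WT MEFs. Subtracting that median share of the tumor cell level moved the median difference of all gene names in WT MEFs to -0.76, with 21344 gene names called, so values under it are read against that median. The differences in WT MEFs were then -0.87 for Loxl4 (adjusted p = 3.39e-04), below the median, and -0.60 for Loxl2 (adjusted p = 0.0103) and -0.47 for Loxl3 (adjusted p = 0.0282), above it. The Loxl4 difference between co-cultured null and WT MEFs was then -0.22 (adjusted p = 0.138), beside a median of 0.60 over all gene names. The same subtraction gave Plod2 a difference of -1.01 in WT MEFs and left Tgm2 at 2.62.

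Grown alone, the tumor cells had far lower levels of Lox and Loxl1 than either kind of MEF. Lox read 5.54 and 5.28 in tumor cells alone, not well above background on the array of that group with a sound scan, and was at least 38.8-fold lower than in Hsf1 null MEFs alone and at least 291-fold lower than in WT MEFs alone. Loxl1 read 8.03 and 8.01 in tumor cells and was 36.8-fold lower than in null MEFs and 121-fold lower than in WT MEFs. Loxl2 read 7.57 and 7.63 and was 2.31-fold lower than in null MEFs and 3.48-fold lower than in WT MEFs. Loxl3, at 8.92 and 9.05, was 1.48-fold lower than in null MEFs (adjusted p = 0.0233) and 8.01-fold lower than in WT MEFs. The call against null MEFs was lost without Rep A of tumor cells or Rep B of null MEFs (adjusted p = 0.107 and 0.151).

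Loxl4 read 11.06 and 11.01 in tumor cells alone. It was 1.78-fold higher there than in Hsf1 null MEFs (difference 0.83 ± 0.12, adjusted p = 1.84e-04) and 1.31-fold lower than in WT MEFs (-0.39 ± 0.12, adjusted p = 0.0189). The second call was lost without Rep B of tumor cells or either WT array (adjusted p of 0.0527 to 0.0936). Against null MEFs alone, 1 member was thus called higher and 4 lower, where 27.3% of all gene names were called higher, 25.4% lower and 52.6% in either direction. Against WT MEFs alone, all 5 were called lower, where 23.6% of all gene names were called lower, 27.8% higher and 51.4% in either direction.

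**Figure D3:**
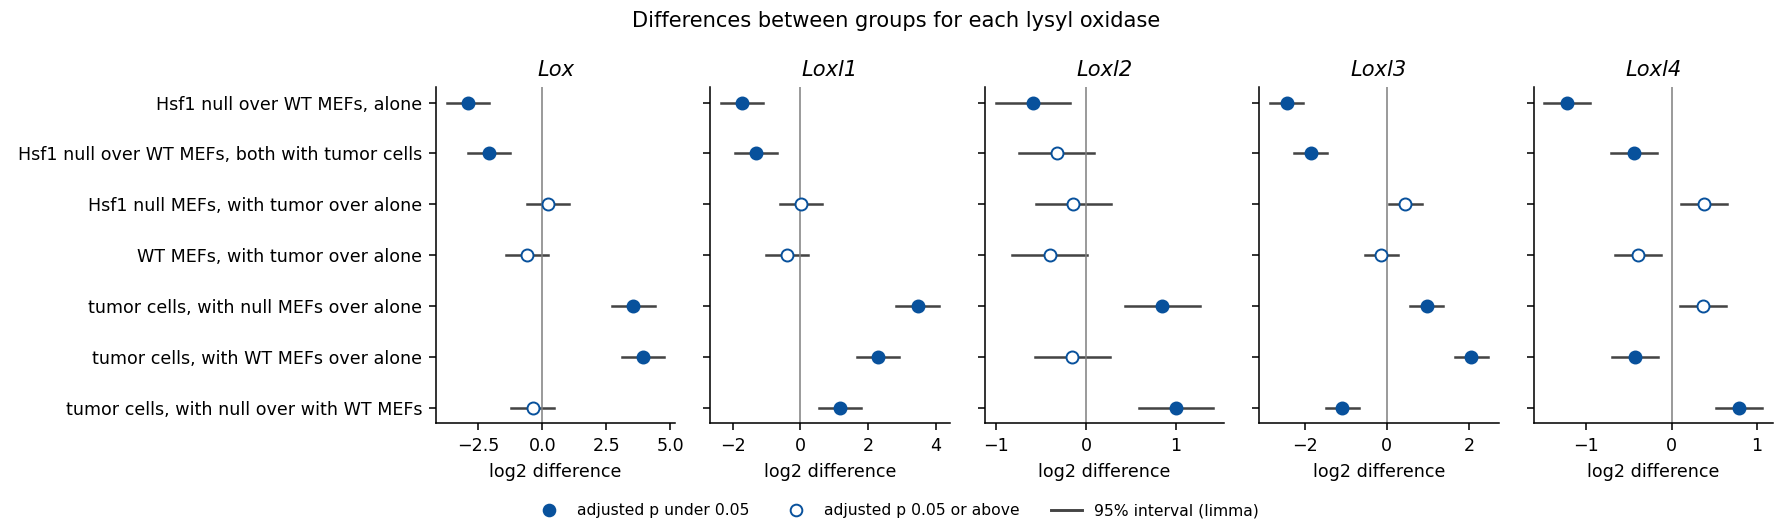
Log2 difference of each member in 7 comparisons, 1 panel a gene, with 95% intervals from limma and filled points for an adjusted p under 0.05. In the upper pair of lines, Hsf1 null over WT MEFs, the points lie left of 0 in all 5 panels. The Loxl2 interval for co-cultured MEFs reaches over 0. The lines for tumor cells with MEFs over tumor cells alone lie right of 0 for Lox, Loxl1 and Loxl3.

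Tumor cells sorted away from MEFs had more Lox, Loxl1 and Loxl3 than tumor cells grown alone. With Hsf1 null MEFs, 4 of 5 members were called higher and 0 lower, where 10.1% of all gene names were called higher, 9.6% lower and 19.7% in either direction. With WT MEFs, 3 of 5 were called higher and 1 lower, where 7.04% were called higher, 4.77% lower and 11.8% in either direction. Both comparisons use the same 2 arrays of tumor cells alone, so their values are given side by side without a test of their likeness.

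Lox read 8.23 and 9.70 in tumor cells with Hsf1 null MEFs and 9.32 and 9.37 in tumor cells with WT MEFs, against the 5.54 and 5.28 of tumor cells alone. That was at least 11.8-fold higher with null MEFs (3.56 ± 0.37, adjusted p = 8.96e-05) and at least 15.3-fold higher with WT MEFs (3.94 ± 0.37, adjusted p = 9.84e-05). The arrays with null MEFs were the widest pair for Lox in any group. Loxl1 read 10.91 and 12.05 with null MEFs and 10.45 and 10.19 with WT MEFs, against 8.03 and 8.01 in tumor cells alone, differences of 3.46 ± 0.28 (adjusted p = 1.33e-05) and 2.30 ± 0.28 (adjusted p = 5.08e-04). Loxl3 read 9.67 and 10.25 with null MEFs and 11.05 and 11.04 with WT MEFs, against 8.92 and 9.05 in tumor cells alone, differences of 0.97 ± 0.18 (adjusted p = 0.00427) and 2.06 ± 0.18 (adjusted p = 6.28e-05). Neither co-culture overlapped with tumor cells alone for these 3 genes. The same held for Loxl4 and for Loxl2, although Loxl2 with WT MEFs was not called. The share of all gene names with such a split was not counted.

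Loxl2 and Loxl4 differed between the partners, as tested further on. Loxl2 read 8.13 and 8.75 with Hsf1 null MEFs and 7.52 and 7.37 with WT MEFs, against 7.57 and 7.63 in tumor cells alone. It was called higher with null MEFs (0.84 ± 0.19, adjusted p = 0.0105) and not with WT MEFs (-0.15, interval -0.57 to 0.26). The first call was lost without Rep B of tumor cells with null MEFs, where the difference was 0.53 (adjusted p = 0.0663), and without Rep A of tumor cells alone (adjusted p = 0.0506). Loxl4 read 11.25 and 11.54 with null MEFs and 10.50 and 10.72 with WT MEFs, against 11.06 and 11.01 in tumor cells alone. It was 0.36 higher with null MEFs (adjusted p = 0.0600, and 0.0257 without Rep A of that group) and fell by 0.43 with WT MEFs (adjusted p = 0.0453), a call that was lost in 10 of 14 fits without 1 array, those without any 1 array of tumor cells with WT MEFs, of tumor cells alone, of co-cultured or lone WT MEFs or of lone null MEFs (adjusted p of 0.0533 to 0.224). With the replicate block, the difference with null MEFs passed (adjusted p = 0.0458).

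MEF-typical signal moved with these gains, and was measured as follows. For genes at least 32-fold higher in MEFs than in tumor cells, the gain of tumor cells over their level alone was expressed as a percent of the level in the co-cultured MEFs. Those profiled MEFs were separate samples with no mitomycin C exposure recorded, whereas the MEFs beside the profiled tumor cells had been exposed. The percent thus uses a stand-in for the level of the actual partner. The median gain over 253 genes was 9.27% and 22.9% in tumor cells with Hsf1 null MEFs (Rep A and B). Over 330 genes it was 7.35% and 7.37% in tumor cells with WT MEFs. Lox gained 7.30% and 7.62% with WT MEFs, above 160 and 175 of the 330 genes, and Loxl1 gained 4.74% and 3.78%, above 41 and 14 of them. Both thus lay in the range of MEF-typical genes, and Loxl1 lay low in it. Loxl3 gained 43.4% and 42.9%, above all 330 genes in Rep A and above 329 of them in Rep B, although its MEF level was 8.01-fold and not 32-fold above that of tumor cells. With null MEFs, Lox gained 13.0% and 39.6% and Loxl1 17.1% and 40.7%, above 186 to 208 of the 253 genes. Loxl3 gained 29.7% and 68.2% there, above 236 and 238 of them and below their 95th percentile of 39.8% and 96.5%. Its level in lone null MEFs was only 1.48-fold above that of tumor cells alone, far from 32-fold, so Loxl3 is not on the same scale as those genes.

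**Figure D4:**
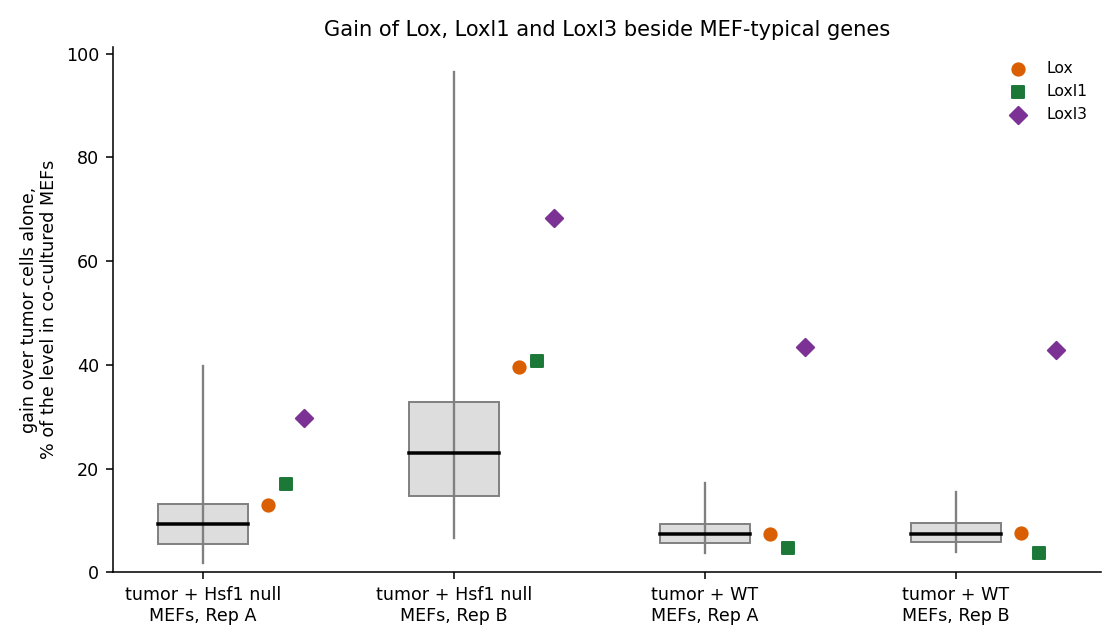
Gain of Lox, Loxl1 and Loxl3 on each array of sorted tumor cells, over tumor cells alone. It is in percent of the level in the profiled co-cultured MEFs, for which no mitomycin C exposure is recorded. Boxes show the middle 50% of MEF-typical genes (253 with Hsf1 null MEFs, 330 with WT MEFs), thick lines their median and thin lines their 5th to 95th percentile. Loxl3 lies far above the boxes with WT MEFs, Lox near the median and Loxl1 below the box.

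When the median share was subtracted on the linear scale, Loxl3 with WT MEFs kept a difference of 1.86 over tumor cells alone, Lox had 0.22 (adjusted p = 0.812), and Loxl1 had -3.29, since its share was under the median and its level was set to the lowest signal well above background. With Hsf1 null MEFs the same subtraction left 2.30 for Lox, 2.46 for Loxl1, 0.72 for Loxl3 and 0.56 for Loxl2. All 4 were still called higher, where 1225 of 25896 gene names were called higher and 7845 lower. The median over all gene names was -0.37 after this subtraction, so these values are read against that median. In the 12 sound scans, Loxl3 was called with WT MEFs and not with null MEFs, where its difference was 1.42 (adjusted p = 0.0570).

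Of 13 tested proteins that cleave, bind or place lysyl oxidases, 5 rose and 1 fell in tumor cells with Hsf1 null MEFs, where 10.1% of all gene names were called higher and 9.6% lower. With WT MEFs 7 rose and 0 fell, where 7.04% were called higher and 4.77% lower, and the others did not pass. The genes named next are among those with the smallest p. Adamts2, the protease that trims procollagen so that fibrils and crosslinks can form, was at least 14.8-fold higher with null MEFs and at least 5.92-fold higher with WT MEFs. Fbln5 was at least 4.05-fold higher with null MEFs and at least 8.79-fold higher with WT MEFs, and Fbn1 differed by 2.69 ± 0.32 and 2.44 ± 0.32. Fkbp10, of the list of hydroxylases and helpers, a chaperone needed for lysine hydroxylation of collagen ends, was at least 277-fold and at least 119-fold higher. After the median MEF share was subtracted with WT MEFs, Fbln5 kept 2.54, Fkbp10 had 1.32 (adjusted p = 0.462), Adamts2 had 0.76 (adjusted p = 0.143) and Fbn1 had -1.73.

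Tumor cells differed in 4 members by the Hsf1 genotype of their partner. With Hsf1 null rather than WT MEFs, Loxl1 was 2.24-fold, Loxl2 2.00-fold and Loxl4 1.73-fold higher, and Loxl3 was 2.12-fold lower (3 of 5 called higher and 1 lower, where 5.38% of all gene names were called higher, 4.11% lower and 9.49% in either direction). The differences were 1.16 ± 0.28 for Loxl1 (adjusted p = 0.0273), 0.998 ± 0.19 for Loxl2 (adjusted p = 0.00744), 0.79 ± 0.12 for Loxl4 (adjusted p = 0.00234) and -1.09 ± 0.18 for Loxl3 (adjusted p = 0.00390). Lox differed by -0.38 (interval -1.21 to 0.44), and its arrays overlapped. Single Loxl2 probes were read on the 12 sound scans, which hold only Rep B of tumor cells with null MEFs. There the chromosome 14 probes differed by 1.03, 2.99 and 2.19 from upstream to downstream, and the chromosome 2 probe by -0.080.

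The 2 arrays with Hsf1 null MEFs differed in MEF-typical signal, as the marker sums and shares above show, so values without each are given. Without Rep B, the array with more of that signal, Loxl1 differed by 0.60 (adjusted p = 0.0644), Loxl2 by 0.68 (adjusted p = 0.0322), Loxl4 by 0.65 (adjusted p = 0.0156), Loxl3 by -1.37 (adjusted p = 8.11e-04) and Lox by -1.11 (adjusted p = 0.0211). Without Rep A, Loxl1 differed by 1.73, Loxl2 by 1.31, Loxl4 by 0.93, Loxl3 by -0.80 and Lox by 0.35 (adjusted p = 0.467). Loxl4 and Loxl3 thus passed in opposite directions with either array, while Lox changed sign. Loxl1 was also lost without either array with WT MEFs (adjusted p = 0.0668 and 0.149), and Loxl2 without Rep B of them (adjusted p = 0.0558). Fitted on tumor cell arrays alone, none of the 4 passed (adjusted p of 0.0514 to 0.162). In the 12 sound scans Loxl3 differed by -0.89 and did not pass (adjusted p = 0.228).

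With Hsf1 null rather than WT MEFs, 4 of 12 hydroxylases, helpers and other crosslinkers were higher and 2 lower in tumor cells, where 5.38% of all gene names were called higher and 4.11% lower. P4ha2 differed by 0.73 ± 0.12 (adjusted p = 0.00287), Fkbp10 by 1.22 ± 0.30 (adjusted p = 0.0298) and Plod2 by -0.61 ± 0.17 (adjusted p = 0.0477). The Plod2 call was kept only without Rep A of tumor cells with WT MEFs or either array of tumor cells alone, and lost without any other 1 array (adjusted p of 0.0586 to 0.275). Of 13 proteins that cleave, bind or place lysyl oxidases, 1 was higher and 1 lower: Adamts2 at 1.32 ± 0.25 (adjusted p = 0.00749) and Pcolce2, an enhancer of procollagen processing, at -0.84 ± 0.11 (adjusted p = 0.00106). Without Rep B of tumor cells with null MEFs, Fkbp10 differed by 0.61 (adjusted p = 0.0646), and it was also lost without Rep A or Rep B with WT MEFs (adjusted p = 0.0543 and 0.174). Adamts2 was lost without Rep B with WT MEFs (adjusted p = 0.0585).

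Ordered by mean level, Lox, Loxl1 and Loxl3 were highest in WT MEFs alone and lowest in tumor cells alone. For Lox the order below WT MEFs alone was co-cultured WT MEFs, co-cultured and lone Hsf1 null MEFs, tumor cells with WT MEFs, tumor cells with null MEFs and tumor cells alone. The neighbours that did not differ beyond their spread (a 95% interval over 0) were lone and co-cultured WT MEFs, co-cultured and lone null MEFs, and both kinds of co-cultured tumor cells. The same MEF pairs were not separated for Loxl1, whose other neighbours were. Loxl3 departed from this order, since tumor cells with WT MEFs (mean 11.04) lay above co-cultured null MEFs (mean 10.0). Loxl2 separated only tumor cells with null MEFs (mean 8.44) from tumor cells alone (mean 7.60) among its neighbours. Loxl4 ran from 11.4 in WT MEFs alone to 10.2 in null MEFs alone, and tumor cells with null MEFs were not separated from WT MEFs alone.

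Across the 14 arrays, which share groups and sort, Lox and Loxl1 followed each other most closely (r = 0.97), and Loxl2 followed Loxl1 (r = 0.92). Loxl3 followed Lox (r = 0.81), whereas Loxl4 had r of at most 0.37 with any other member. Among 23396 other genes, those most like Lox were Sulf1, Thbd and Col6a1 (r of 0.995 to 0.997). Loxl1 was most like Wnt5a, a transcript that carries only a coordinate name, and Pcp4l1 (0.994 to 0.995). Loxl2 was most like Esyt1, Lifr and Map3k14 (0.979 to 0.984), and Loxl3 most like Gm13597, Pcdhb22 and Itga8 (0.970 to 0.976). Loxl4 was most like Taok3, Ddit3 and Hmox1 (0.936 to 0.962).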

How the data were processed

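Expression was measured on 14 Agilent 1-colour mouse arrays (2 slides, 7 groups of 2). The authors deposited a value table in log2 units, 1 value per gene name, scaled between arrays in a way that the sources used here do not give, with array medians of 6.34 to 6.40. The scanner files hold intensity values per spot that Feature Extraction had background-subtracted in the processed signal, per the file headers. Its version is 9.1 in the submitters' processing notes and 10.1.1.1 in the deposited headers. The value table was the main source because 2 scanner files were faulty. A fit of group means over all 14 arrays was made with limma 3.58.1 in R 4.3.3 (lmFit, contrasts.fit, eBayes) with Benjamini-Hochberg adjustment over 25896 gene names and a threshold of 0.05, errors are SE, and groups of 2 share 1 spread per gene. Flags for signal above background of the 2 faulty arrays were taken from the other array of the group. "At least" folds take the dim group at its own signal or the lowest signal well above background, whichever is higher. The precision is limited by 2 arrays a group. In simulated data on 25896 genes, co-cultured WT MEFs were changed. There 71 of 100 changes of 1 and 95 of 100 changes of 2 on the log2 scale were recovered, and 10 unchanged genes were called. The simulated noise was independent between arrays, whereas differences between Rep A and Rep B of the data correlated between groups.

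Replicate letters and slides are the same split. The differences between Rep A and Rep B correlated between groups with r of 0.07 to 0.46 (21 pairs of groups, 20 over 0.1), and the block on the letter, which is also the slide, is an alternative whose value is given where it changes a member's call. Alternatives were scanner values of the 12 sound arrays or all 14 (processed signal over the 75th percentile), normexp with quantile normalization, quantile normalization of the value table, other filters, each cell type alone, subtraction of the partner's share, single probes, and each array left out. The members and lists were chosen with earlier results of these data known. Named list genes are up to 4 passing genes of a list and comparison with the smallest p, and Plod2 between partner genotypes, chosen after its value was seen (some results are not reported here), and similar genes the 3 with the highest r. Symbols and coordinates are those of the array annotation.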

Additional observations from a re-analysis of the deposited data

Results flagged for a closer look

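The response to co-culture differed between Hsf1 null and WT MEFs, by the interaction term in limma, for the 4 genes whose difference of responses is given above. Other genes named above also passed this term. Among them were Bnip3 (-1.34, adjusted p = 3.43e-04), Car9 (1.14, adjusted p = 0.0248) and Tgfbi (-1.91, adjusted p = 0.0477). Loxl4 differed by 0.78 (null minus WT, adjusted p = 0.0378), with a response of 0.38 in null MEFs and -0.40 in WT MEFs, each seen on both arrays. Tgm2 differed by -2.44 (adjusted p = 1.98e-04), Col5a3 by 1.73 (adjusted p = 0.00534) and Ctgf by 2.13 (adjusted p = 0.00903). Signal typical of tumor cells was 8.76% and 9.06% of its tumor cell level in co-cultured null MEFs and 37.2% and 37.3% in co-cultured WT MEFs. After that share was subtracted, the differences were 1.001 for Loxl4, -1.84 for Tgm2, 1.68 for Col5a3 and 2.10 for Ctgf, beside a median of 0.59 over all gene names. Groups of 2 arrays were not searched for single arrays far from the others.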

How the results depend on the processing

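Under alternatives other than a left-out array or a single probe, 368 member results kept direction and side of the threshold, 39 lost the call, 9 gained one and 14 changed sign. Quantile normalization of the value table changed no member call, nor did a filter on all sound arrays, which left Lox out. The all-14 scanner values include the faulty files. They called 2 members in tumor cells with Hsf1 null MEFs and 2 with WT MEFs (over tumor cells alone), 0 between the 2 co-cultures, 2 and 1 between null and WT MEFs alone and co-cultured, 0 for the difference of responses and 2 for tumor cells against null MEFs, and gave -1.73 for Loxl4 with null MEFs, 0.30 with WT MEFs and -2.03 between them, and 0.78 for Loxl2 with WT MEFs. The 12 sound scans gave 0.13 for Loxl2 with WT MEFs, 0.45 for Lox between partner genotypes, and 0 members for the difference of responses; these and all 14 gave -0.040 for Lox and -0.081 for Loxl1 in co-cultured null MEFs. Normexp gave 0.35 for Lox between partner genotypes and 2 members in co-cultured WT MEFs, and no filter on dim genes gave 0 for the difference of responses. Each cell type alone gave 0 members between partner genotypes and 1 in co-cultured WT MEFs. The replicate block gave 1 member in co-cultured WT MEFs (Loxl4, -0.40) and passed Loxl4 in tumor cells with null MEFs (0.36), and changed no other member call. Partner share subtraction gave -3.29 for Loxl1 and -1.73 for Fbn1 in tumor cells with WT MEFs, 2.08 for Lox between partner genotypes, -0.022 for Loxl1 in co-cultured null MEFs, -1.01 for Plod2 and 3 members in co-cultured WT MEFs, and 2 members for the difference of responses.

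Single probes gave 0.67 and 0.23 for Lox between partner genotypes, -0.14 for Lox, -0.052 and -0.11 for Loxl1 and 0.016 for Loxl2 in co-cultured null MEFs, and 0.47, 0.077 and 0.047 for Loxl2 in tumor cells with WT MEFs. The chromosome 14 probes of Loxl2 gave 1.08, 2.91 and 2.67 in tumor cells with null MEFs, from upstream to downstream. The chromosome 2 probe of Loxl2 gave -0.0025 in tumor cells with null MEFs, -0.080 between partner genotypes, 0.014 between null and WT MEFs alone, -0.11 for the difference of responses and 0.011 between tumor cells and WT MEFs. With 1 array left out, Lox ran from -1.11 to 0.35 between partner genotypes, and in co-cultured null MEFs Lox ran from -0.084 to 0.55, Loxl1 from -0.15 to 0.19 and Loxl2 from -0.29 to 0.014. Members called ran from 3 to 5 in tumor cells with null MEFs, 3 to 4 with WT MEFs, 2 to 4 between partner genotypes, 0 to 1 in co-cultured WT MEFs and for the difference of responses, 4 to 5 between null and WT MEFs alone, and 3 to 4 between them after co-culture. Apart from the alternatives' own construction, the cause was not tested.

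Over all gene names, tumor cells with null MEFs, with WT MEFs and between these had 5099, 3058 and 2457 calls (51.2%, 59.6% and 56.7% higher). The 12 sound scans gave 2636, 1401 and 1633 (71.4%, 79.7% and 76.9%), each cell type alone 2244, 1279 and 920 (68.7%, 74.8% and 68.0%), normexp 2674, 1471 and 1863 (62.2%, 65.5% and 67.5%), partner share subtraction 9070, 1545 and 3450 (13.5%, 43.7% and 27.9%) and all 14 files 311, 155 and 115 (95.5%, 91.0% and 93.9%). The strict filter gave 1555 between partner genotypes. Partner share subtraction gave 374 against 814 calls in co-cultured null MEFs, 21344 against 2722 in co-cultured WT MEFs (1.4% and 60.0% higher), 17737 against 7641 between them (90.5% of the first higher) and 7753 against 784 for the difference of responses (98.7% and 35.2% higher), where the 12 sound scans gave 397. All 14 files gave 116 in co-cultured null MEFs, 295 in co-cultured WT MEFs (97.6% higher), 18 for the difference of responses, 1573 against 8746 and 772 against 7641 between null and WT MEFs alone and co-cultured, and 3759 against 13626 and 3503 against 13307 for tumor cells against null and WT MEFs. The 2 arrays a group and the signal of Lox in tumor cells, at background, limit these results.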

Other observations

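Rep A of the co-cultured Hsf1 null MEFs differed from Rep B in several genes that were high in WT MEFs. Eln read 9.59 in Rep A and 6.67 in Rep B of co-cultured null MEFs, against 6.75 and 6.80 in null MEFs alone and 13.44 and 13.73 in WT MEFs alone. Fbln5 read 8.72 and 7.23, against 7.44 and 7.46 in null MEFs alone, and Adm read 9.10 and 7.77, against 8.20 and 8.01. Lox read 11.24 and 10.61 on the same arrays. These genes were chosen after their values were seen.

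Neither Lox probe was well above background in tumor cells alone. The 2 Loxl4 probes gave 0.99 and 0.72 for the difference between co-culture responses in the 12 sound scans, with adjusted p of 0.200 and 0.245.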
